A study of Mus musculus with 18 samples.

Results

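The antibody effect of anti-Ox40 was set between 2 doses of T cell receptor stimulation in splenic CD4 T cells. For each gene, the difference between anti-Ox40 and control Ig libraries at low beads was subtracted from the same difference at high beads, on the log2(nRPKM + 1) scale. This difference of differences uses 12 of the 18 libraries, chosen by their labels, and was tested for 13075 genes of the 36528 entries in the table. The donors were NZB/W F1 females, a lupus-prone hybrid, whose splenic cells were isolated at 21 to 27 weeks of age with proteinuria of 30 to 100 mg/dL. All cultures held 250000 cells per well and 10 U/mL of IL-2 and lasted 48 h. The 4 groups, with 3 libraries each, were anti-Ox40 with high beads, control Ig with high beads, anti-Ox40 with low beads and control Ig with low beads. The anti-Ox40 antibody and its isotype control were both IgG1 at 25 µg/mL, and the anti-CD3/CD28 beads were used at 1:1 (high) or 1:10 (low). Anti-Ox40 and control Ig cultures without beads, 3 libraries each, entered this comparison only through the estimate of the spread and the choice of tested genes. The labels do not say whether the libraries of a group came from separate mice or cultures, so the spread behind each p-value is that between libraries and may be technical. In deviations from the group mean, all 18 libraries correlated best with the library of the same number, in accession order, of another group. The reported fit did not pair them.

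Ox40, encoded by Tnfrsf4, is a receptor of the TNF receptor superfamily that appears on T cells after they are activated. Its ligation recruits TRAF adaptors and feeds the NF-kB pathways, adding to signals from the T cell receptor and CD28, and favours survival and cytokine production. Strong receptor stimulation also drives T cells to take up glucose, to raise glycolysis through mTOR, MYC and hypoxia-inducible factor, and to divide. Beads that carry antibodies to CD3 and CD28 supply both of those signals in place of an antigen-presenting cell.

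The antibody effect differed with the bead dose for 414 genes (3.17% of those tested, adjusted p under 0.05, limma with Benjamini-Hochberg adjustment). It was higher at high beads for 192 genes (1.47%) and lower at high beads for 222 genes (1.7%). Genes of the first kind included Bcl2l14, Btla, Batf3, Plk2, Il5 and 4 members of the NF-kB pathway, and had a median antibody effect of 0.30 at high beads and -0.05 at low beads. The named genes of the second kind were not alike. Slc16a3 and Tpi1 of glycolysis and Mgarp, a hypoxia-inducible factor target, were raised by the antibody at low beads and not called at high beads, while Klf2, Stat4 and Dusp6 were lowered at high beads and not called at low beads, and Tnfsf11 and Itga7 were called in opposite directions at the 2 doses. The median antibody effect of the 222 genes was -0.41 at high beads and 0.04 at low beads. Over all tested genes the median difference was 0.00.

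Most of these differences were small. A size of at least 0.5 on the log2 scale was reached by 37 genes in the higher direction and 96 in the lower, and a size of at least 1 by 5 and 3. With the scaling of libraries changed to a common median, the split became 151 higher and 289 lower. The count rests on which libraries are used. It was 3 (Bcl2l14, Mgarp and Slc16a3) when replicate 3 was left out of each group. Replicate 3 is the library with the most B cell transcripts in every group. Without it 1328 genes were at unadjusted p under 0.05, against 2638 with all libraries. That fit also has fewer libraries in each group and fewer degrees of freedom. No other replicate number was left out of every group for comparison. With all libraries and a B cell score as covariate the count was 419. The part of B cell transcripts in the fall was not tested. Fitted on the 12 bead libraries alone the count was 152, and 25 of the 55 named genes called remained called. Without a single library it was 108 without anti-Ox40 high beads replicate 1. It was 653, 166 and 102 without control Ig high beads replicates 1, 2 and 3. It was 182 and 137 without anti-Ox40 low beads replicates 1 and 3, and 219, 1243 and 149 without control Ig low beads replicates 1, 2 and 3.

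**Figure D1:**
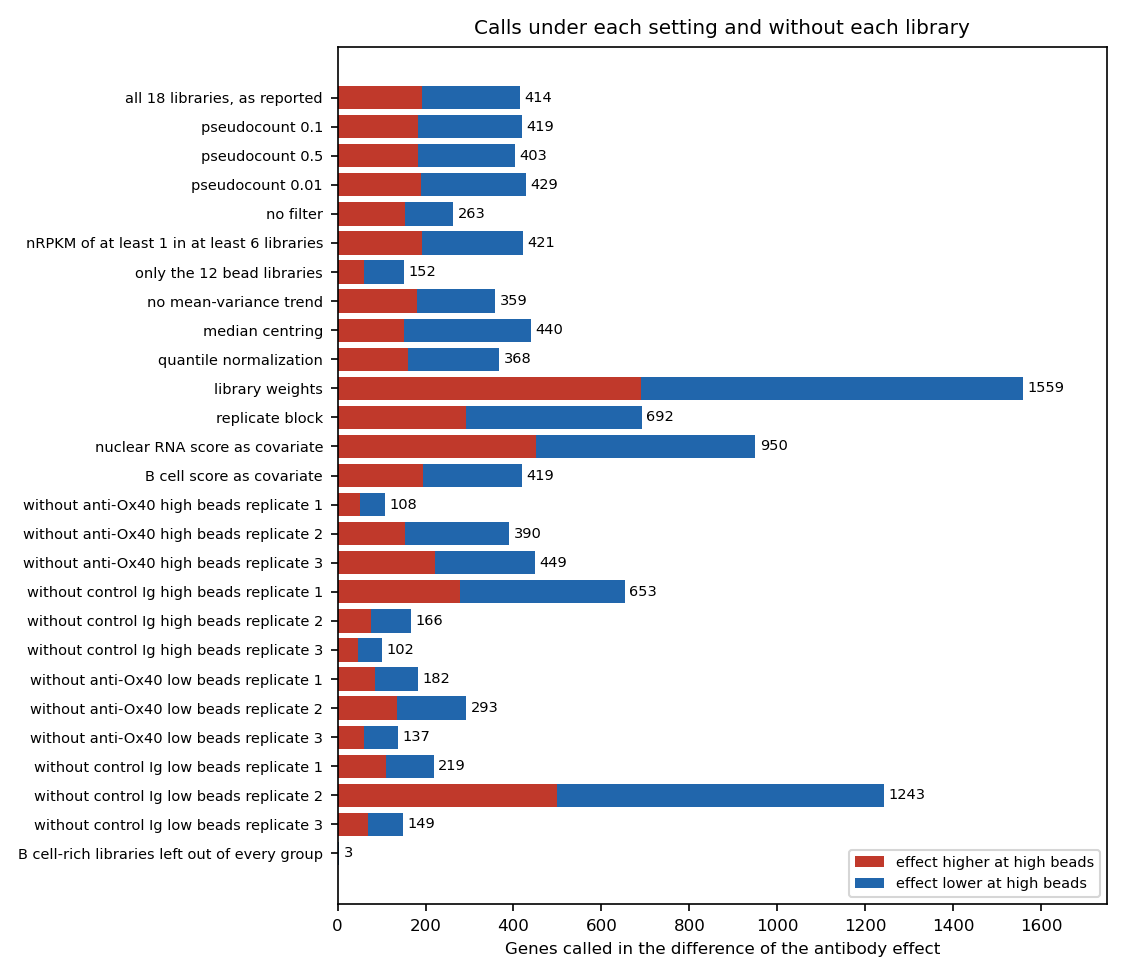
Horizontal bars give the number of genes called in the difference of the antibody effect, stacked as effect higher (red) and lower (blue) at high beads, for the reported fit with 414 calls, for each alternative setting and with each library left out. The count lies between 102 and 1243 over the 12 fits that leave out 1 library. It is 3 without the B cell-rich library of every group, a fit with fewer libraries in each group.

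Taken one dose at a time, the antibody changed 3397 genes at high beads (26%), of which 1877 rose (14.4%) and 1520 fell (11.6%). At low beads it changed 1254 genes (9.59%), with 804 higher (6.15%) and 450 lower (3.44%). The gap between these counts rests on the libraries and their weights. With library weights the counts were 4187 at high and 4109 at low beads. Without control Ig low beads replicate 2 they were 3880 and 3522, and without replicate 1 of that group 3424 and 131. The effects at the 2 doses come from separate libraries. Of the genes called in the reported fit, 622 were shared, which is 18.3% of the high-bead calls and 49.6% of the low-bead calls. The direction was the same for 606 of them and opposite for 16. Across all tested genes, which are not independent replicates, Pearson's r between the 2 effects was 0.42.

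**Figure D2:**
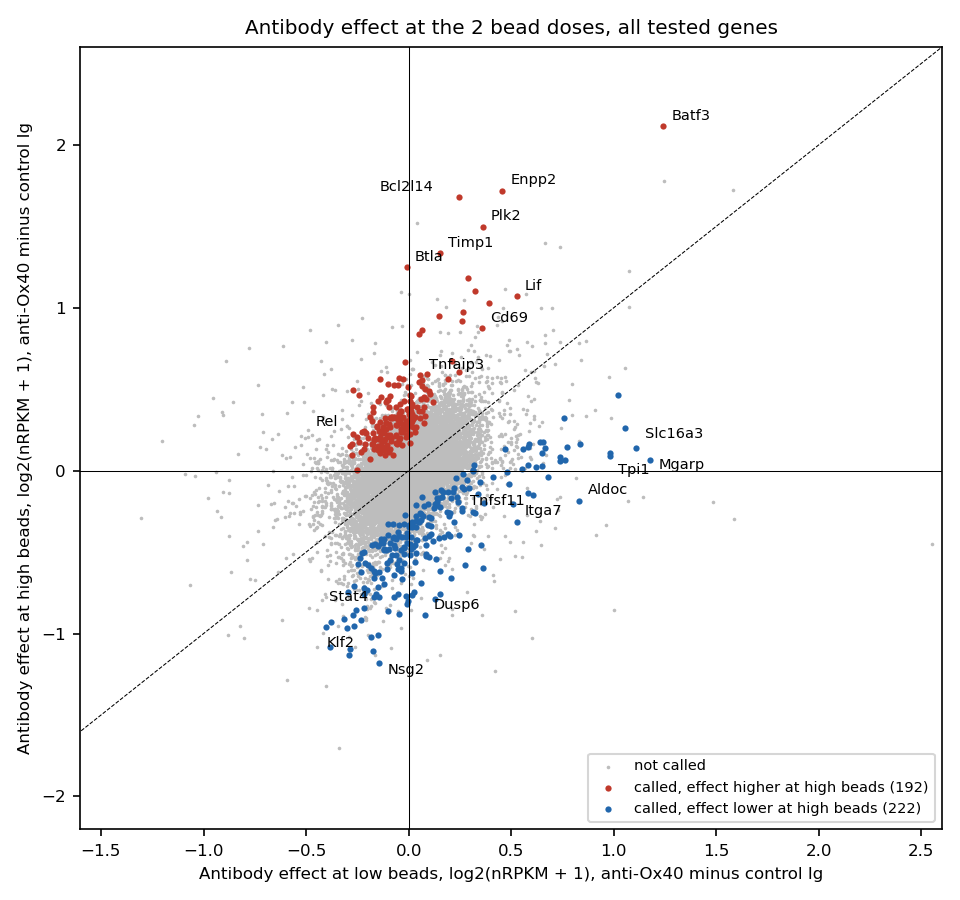
Each point is 1 tested gene, with the antibody effect at low beads on the x axis and at high beads on the y axis, both as anti-Ox40 minus control Ig on the log2(nRPKM + 1) scale, and 2 genes lie beyond the axes. The dashed line marks equal effects: the 192 genes called higher at high beads (red) lie above it and the 222 called lower (blue) below it.

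The libraries carried the transcripts of CD4 T cells. Cd4 lay between 174.5 and 267 nRPKM in the 12 bead libraries, and Cd8a, which marks CD8 T cells, was at most 0.329 nRPKM. Other genes of the CD8 T cell list were higher, with Cd8b1 between 4.35 and 6.52 nRPKM and Gzma, a granzyme gene, between 13.8 and 118.9 nRPKM. Libraries of a group correlated at 0.989 to 0.995, and an nRPKM of 1 over 1 kb of transcript stood for 31.6 to 46.0 reads. Other transcripts moved with the groups. Of the 10 tested B cell markers none was called in the difference. Yet the summed level of all 12 listed B cell markers reached 12.2, 17.3, 53.6 and 62.3 nRPKM in replicate 3 of anti-Ox40 high, control Ig high, anti-Ox40 low and control Ig low beads. Summed lung epithelial transcripts, foreign to spleen, ranged from 32.9 to 59.2, 35.8 to 130.7, 46.1 to 234.6 and 5.75 to 34.2 nRPKM in the same groups. Their median difference was -1.67 over 7 tested genes, with none called in the difference. At low beads 6 of the 7 were called higher with anti-Ox40, with a median effect of 1.48, and at high beads none was called. Malat1, a nuclear RNA, was 173 nRPKM in control Ig low beads replicate 2, against 453 and 435 in the other libraries of that group. The part of these in the results was not tested, and in bulk RNA fewer cells of a type and less RNA per cell cannot be told apart.

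Neither Ox40 nor its ligand was called in the difference. Tnfrsf4 (chr4:156013595-156016613, GRCm38) stood at 126, 115 and 119 nRPKM in anti-Ox40 high-bead libraries, against 127, 103 and 111 in control Ig high-bead libraries. The low-bead values were 51.8, 46.1 and 45.4 nRPKM with anti-Ox40, against 46.0, 40.0 and 40.3 nRPKM with control Ig. The groups overlapped at both doses, and the difference was -0.10 (95% interval -0.33 to 0.13, adjusted p = 0.64). Tnfsf4, the Ox40 ligand, had a difference of 0.20 (95% interval -0.13 to 0.54, adjusted p = 0.502). Il2ra, the high-affinity subunit of the IL-2 receptor and a mark of activation, rose under the antibody at both doses, by 0.40 at high beads and 0.29 at low beads, and its difference of 0.11 was not called (95% interval -0.12 to 0.33, adjusted p = 0.619). None of the 18 tested members of the TNF receptor superfamily was called in the difference, against 3.17% of all genes.

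The difference was highest for Bcl2l14. Bcl2l14 (chr6:134396329-134438724), a member of the BCL2 family, stood at 6.07, 5.68 and 4.96 nRPKM in anti-Ox40 high-bead libraries, against 1.18, 1.06 and 0.916 nRPKM in control Ig high-bead libraries. At low beads the values were 0.354, 0.453 and 0.300 nRPKM with anti-Ox40, against 0.137, 0.189 and 0.139 nRPKM with control Ig. The groups were apart at both doses, but all 6 low-bead libraries lay under 1 nRPKM. The antibody effect was 1.68 at high and 0.24 at low beads, and the difference was 1.43 (SE 0.11, adjusted p = 1.23e-05). As plain ratios of group means, anti-Ox40 over control Ig was 5.29 at high and 2.38 at low beads. Btla (chr16:45223705-45252895), an inhibitory receptor of lymphocytes that binds the TNF receptor family member HVEM, had 21.9, 19.1 and 16.1 nRPKM in anti-Ox40 high-bead libraries, against 8.69, 6.73 and 6.88 nRPKM in control Ig high-bead libraries. In low-bead libraries there were 10.9, 11.7 and 12.1 nRPKM with anti-Ox40, against 11.4, 10.1 and 13.8 nRPKM with control Ig. The groups were apart at high beads and overlapped at low beads, and the difference was 1.26 (SE 0.16, adjusted p = 0.0015). Between the bead doses, the level of Btla was higher by 0.66 at high beads with anti-Ox40, and the same step was -0.59 with control Ig, on the log2 scale.

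Batf3, Lif and Il5 also had a higher antibody effect at high beads. Batf3, an AP-1 family factor that dimerizes with JUN proteins, averaged 34.6 ± 3.6 nRPKM in anti-Ox40 high-bead and 7.21 ± 0.75 nRPKM in control Ig high-bead libraries, and 4.38 ± 0.57 and 1.27 ± 0.14 nRPKM in the anti-Ox40 and control Ig libraries at low beads (SD, n = 3 each). It was raised at both doses, by 2.12 at high and 1.24 at low beads, with a difference of 0.88 (SE 0.20, adjusted p = 0.0299). The plain ratios lay closer, at 4.80 and 3.44. Lif, a cytokine of the IL-6 family, was also raised at both doses, by 1.07 at high and 0.53 at low beads, with a difference of 0.55 (SE 0.13, adjusted p = 0.0313). Il5, the Th2 cytokine that supports eosinophils, averaged 3.12 ± 0.11 nRPKM in anti-Ox40 high-bead and 0.816 ± 0.10 nRPKM in control Ig high-bead libraries, and stayed at or under 1.11 nRPKM in all 6 low-bead libraries. Its difference was 0.90 (SE 0.19, adjusted p = 0.0234). Of the 22 tested T cell cytokines and chemokines, Il5 and Lif were the 2 called higher, and none was called lower, against 1.47% and 1.7% of all genes. The count was 0 with only the 12 bead libraries, at pseudocounts of 0.1, 0.5 and 0.01, and without anti-Ox40 high beads replicate 1, control Ig high beads replicate 3 or control Ig low beads replicate 3. Il9 and Il21 rose at both doses and were not called in the difference: the effects were 2.79 and 2.48 for Il9, and 1.78 and 1.25 for Il21, at high and low beads in that order.

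**Figure D3:**
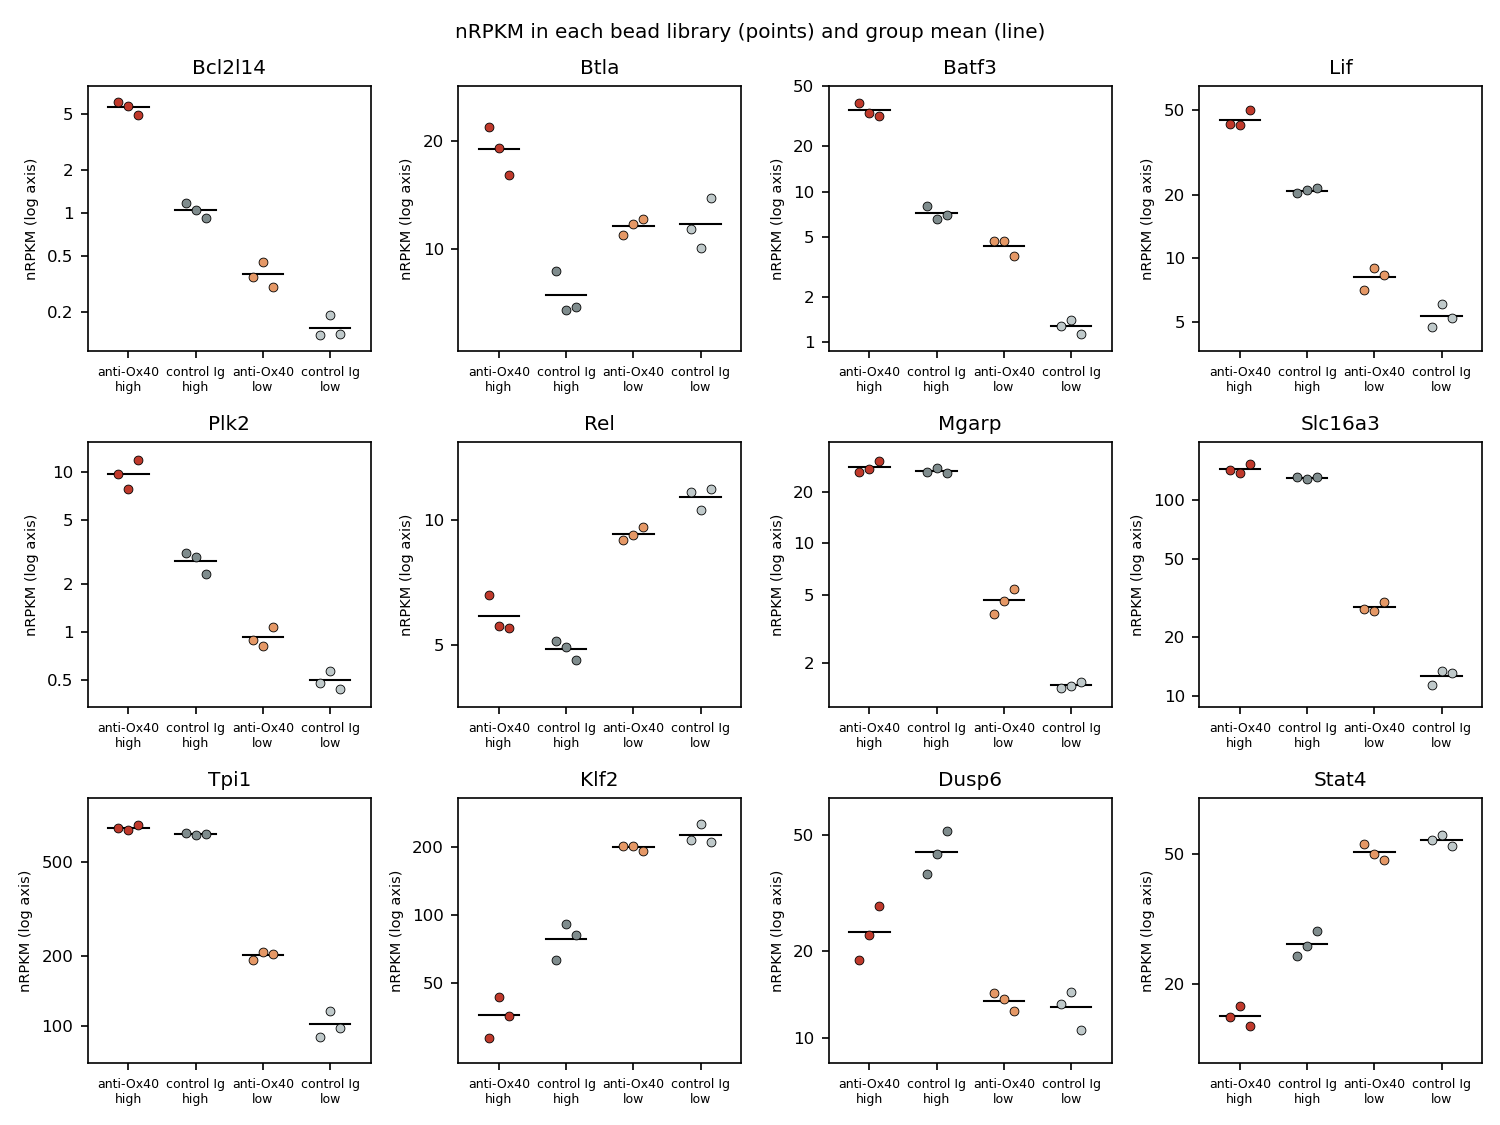
Points give nRPKM on a log axis in each of the 12 bead libraries for 12 genes, and lines the group means, with anti-Ox40 left of control Ig at high and then at low beads. Bcl2l14, Btla, Batf3, Lif and Plk2 separate most at high beads, Mgarp, Slc16a3 and Tpi1 at low beads, and Rel in opposite directions at the 2 doses.

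The rest of the largest higher genes were mixed in function. Enpp2 encodes autotaxin, which makes lysophosphatidic acid (difference 1.26, adjusted p = 0.0217). Timp1 is an inhibitor of metalloproteinases (1.18, adjusted p = 0.0176) and Plk2 a polo-like kinase and p53 target (1.14, adjusted p = 0.00789). Cnn3, an actin-binding calponin, differed by 0.79, Ncoa7 by 0.78, Fam212a by 0.70 and Gpr65, a proton-sensing receptor, by 0.70. For P4ha2, a subunit of collagen prolyl hydroxylase, the call depends on the pseudocount: the difference was 0.71, but the plain ratio of anti-Ox40 to control Ig was 2.37 at high and 3.23 at low beads, where control Ig libraries held 0.130, 0.096 and 0.075 nRPKM. The log2 scale with a pseudocount of 1 understates the change of such low genes. At a pseudocount of 0.1, Enpp2, Timp1, Plk2, Il5, Batf3, Tnip3, P4ha2, Bnip3, Tbx21 and Lif were among the named genes no longer called.

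In the NF-kB pathway, 4 of 25 tested members were called higher and none lower, against 1.47% and 1.7% of all genes. The median antibody effect of the list was 0.16 at high and -0.04 at low beads, and its median difference was 0.14. The 4 members were Tnfaip3 (A20, a deubiquitinase that restrains the pathway), Tnip2 (a partner of A20), Chuk (the kinase IKK alpha) and Rel (the subunit c-Rel). Tnfaip3 had 49.3, 46.4 and 49.9 nRPKM in anti-Ox40 high-bead libraries, against 33.4, 32.9 and 29.7 nRPKM in control Ig high-bead libraries. At low beads it had 34.5, 32.1 and 29.1 nRPKM with anti-Ox40, against 33.0, 34.4 and 25.1 nRPKM with control Ig. The groups were apart at high beads and overlapped at low beads, and the difference was 0.53 (SE 0.13, adjusted p = 0.041). The differences of Tnip2, Chuk and Rel were 0.59, 0.41 and 0.50 (adjusted p = 0.0395, 0.0134 and 0.0189). Nfkb2 and Nfkbia, both classic targets of the pathway, rose at both doses, by 1.00 and 0.71 at high beads and by 0.64 and 0.54 at low beads, and their differences were not called (adjusted p = 0.211 and 0.675). The count of 4 ranged from 1 to 5 with 1 library left out, was 2 with only the 12 bead libraries, where Tnfaip3 and Tnip2 were not called (adjusted p = 0.0996 and 0.0762), and was 0 without the B cell-rich libraries. Tnip3, another partner of A20 that is outside this list, differed by 0.80 (adjusted p = 0.0144). Cflar, which encodes the caspase-8 inhibitor c-FLIP, averaged 16.1 ± 1.1 nRPKM in anti-Ox40 high-bead and 11.9 ± 0.34 nRPKM in control Ig high-bead libraries, against 13.1 ± 0.49 and 13.6 ± 1.0 nRPKM at low beads (SD, n = 3 each), a difference of 0.45 (adjusted p = 0.0117).

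Tnip3, Tnfaip3 and Rel are shown by 60 bases of their promoters, since each holds the NF-kB core (GGG, any 2 bases, TT, any base, CC). Sequences are from RefSeq (GRCm38.p6), 5′ to 3′ on the gene's strand, with the match in capitals, on the reverse strand in each case. They lie at chr6:65590318-65590377 (plus strand, Tnip3), chr10:19015411-19015470 (minus strand, Tnfaip3) and chr11:23771020-23771079 (minus strand, Rel, with 2 overlapping matches).
Tnip3: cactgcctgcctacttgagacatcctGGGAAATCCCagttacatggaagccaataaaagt
Tnfaip3: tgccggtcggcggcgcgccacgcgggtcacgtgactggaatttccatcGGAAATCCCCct
Rel: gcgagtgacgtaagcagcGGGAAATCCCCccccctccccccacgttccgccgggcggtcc
Over promoters of the RefSeq table, 250 bases before to 50 after the start, the core was present on either strand in 8.97% of the 145 genes called higher with a promoter, 6.88% of the 160 called lower and 6.63% of all 8730 tested genes with one. The AP-1 core TGANTCA was present in 5.52%, 11.9% and 5.7%, the STAT core TTCNNNGAA in 8.28%, 10.6% and 8.53%, and the E-box CACGTG in 15.9%, 10.6% and 12%. Of the genes named above, Chuk, Tnip2 and Cflar held no NF-kB core in these promoters. Il2ra, not called in the difference, and Cd96 and Ak4, called lower, did hold it. A match of letters is a description and not a bound site.

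Lower at high beads, the glycolysis list held 9 called genes of 23 tested and none called higher, against 1.7% called lower over all genes. Its median antibody effect was 0.06 at high and 0.31 at low beads, and the median difference was -0.31. Slc16a3 (chr11:120948484-120959000), the MCT4 transporter that exports lactate, had 141, 137 and 152 nRPKM in anti-Ox40 high-bead libraries, against 131, 128 and 131 nRPKM in control Ig high-bead libraries. The low-bead values were 27.7, 27.3 and 30.3 nRPKM with anti-Ox40, against 11.4, 13.5 and 13.1 nRPKM with control Ig. The groups were apart at both doses, by far more at low beads. Its effect was 0.14 at high and 1.11 at low beads, and the difference -0.97 (SE 0.08, adjusted p = 3.25e-05). Tpi1, triosephosphate isomerase, had 701, 687 and 724 nRPKM in anti-Ox40 high-bead libraries, against 666, 654 and 661 nRPKM in control Ig high-bead libraries. In low-bead libraries there were 192, 208 and 204 nRPKM with anti-Ox40, against 90.5, 117 and 98.7 nRPKM with control Ig, and the difference was -0.89 (SE 0.10, adjusted p = 0.000616). The aldolases Aldoc and Aldoa differed by -1.02 and -0.62, the pyruvate kinase gene Pkm by -0.55, the liver-type phosphofructokinase gene Pfkl by -0.52, the glucose transporter gene Slc2a1 by -0.47, the lactate dehydrogenase gene Ldha by -0.42 and Gpi1 by -0.31 (adjusted p between 0.00652 and 0.0384). On the log2 scale the level of Slc16a3 was higher at high than at low beads by 2.29 with anti-Ox40 and by 3.27 with control Ig. Hexokinase 2, Hk2, was raised by the antibody at both doses, by 0.57 at high and 0.98 at low beads (difference -0.40, adjusted p = 0.0564). Tpi1, Aldoa and Gapdh have near-identical copies in the genome, so their reads may be shared with those.

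**Figure D4:**
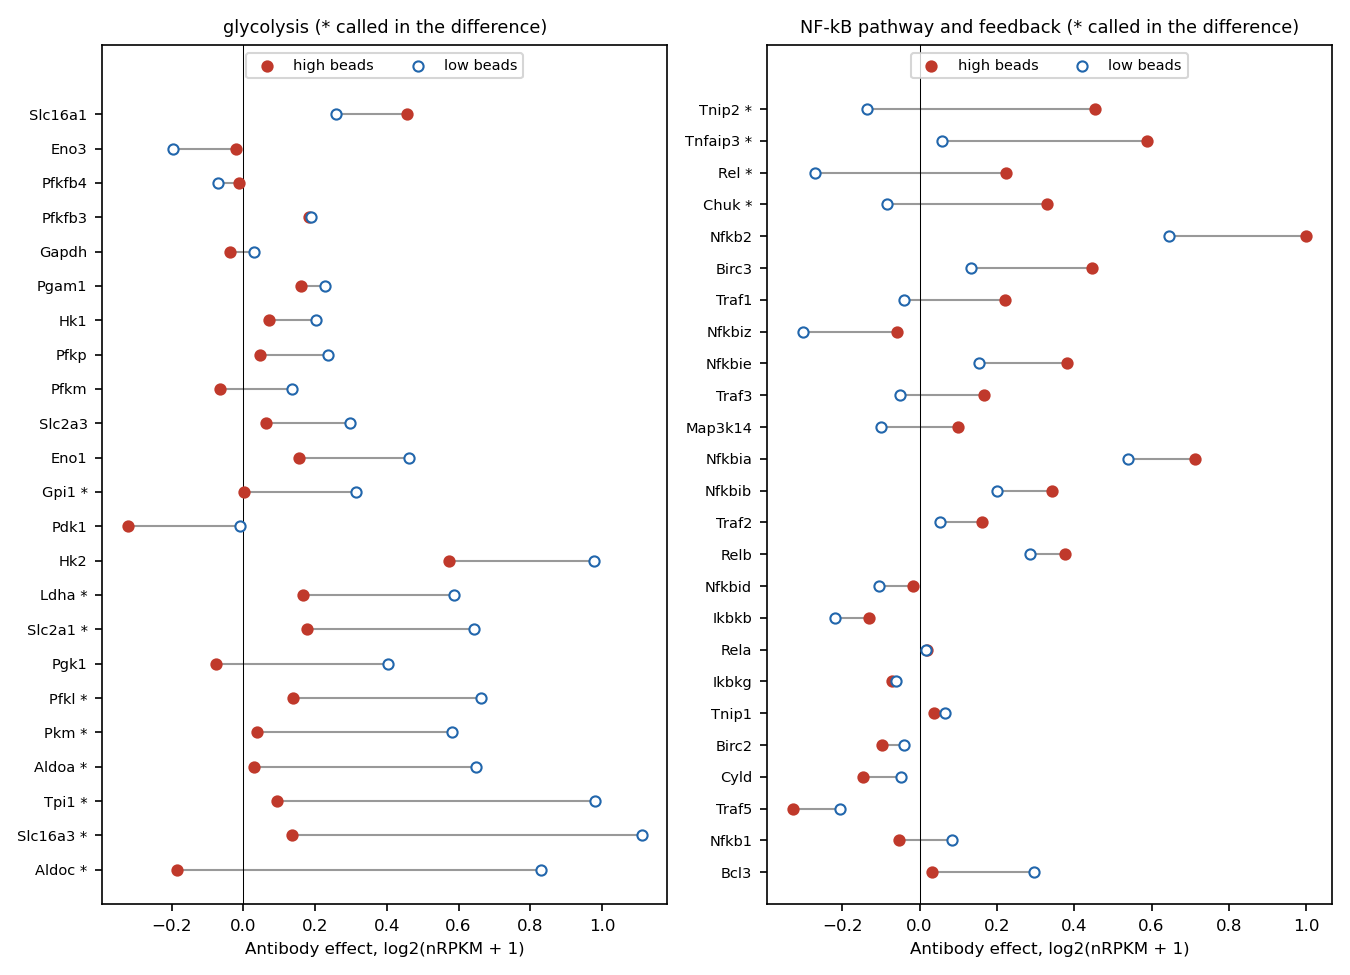
Filled points give the antibody effect at high beads and open points at low beads, as anti-Ox40 minus control Ig on the log2(nRPKM + 1) scale, for each tested member of the glycolysis list (left) and the NF-kB list (right), with asterisks on members called in the difference. The 9 called glycolysis genes have their open points right of the filled ones, and the 4 called NF-kB genes have theirs left.

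Of 26 tested targets of hypoxia-inducible factor, 10 were called lower and 1, P4ha2, higher, against 1.7% and 1.47% of all genes. The median antibody effect was 0.09 at high and 0.44 at low beads. Mgarp, a mitochondrial protein gene, had 26.1, 27.1 and 30.0 nRPKM in anti-Ox40 high-bead libraries, against 26.2, 27.5 and 25.7 nRPKM in control Ig high-bead libraries. At low beads it had 3.87, 4.62 and 5.42 nRPKM with anti-Ox40, against 1.43, 1.46 and 1.54 nRPKM with control Ig. The groups overlapped at high beads and were apart at low beads, and the difference was -1.11 (SE 0.12, adjusted p = 0.000329). Egln1 and Egln3 encode prolyl hydroxylases that mark hypoxia-inducible factor for destruction, and differed by -0.49 and -0.79 (adjusted p = 0.0109 and 0.0154). Ak4, an adenylate kinase gene, differed by -0.67, Bnip3, a mitophagy receptor gene, by -0.54 and Vegfa, the endothelial growth factor gene, by -0.44 (adjusted p = 0.00652, 0.0361 and 0.0411). Ndrg1, Ankrd37, Fam162a and Nrn1 differed by -0.72, -0.76, -0.48 and -0.87. Of the 10, all but Nrn1 rose under the antibody at low beads, and Nrn1 fell at high beads (-0.66, adjusted p = 0.00591). With 1 library left out, the members called lower ranged from 7 to 12 for glycolysis and from 4 to 15 for these targets, and without the B cell-rich libraries 1 of each list was called. With only the 12 bead libraries they were 8 and 5.

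The promoters of Slc16a3 and Egln1 are shown since their windows hold the hypoxia response core ACGTG, in capitals, from RefSeq (GRCm38.p6), 5′ to 3′ on the gene's strand. They lie at chr11:120949007-120949066 (plus strand) and chr8:124949285-124949344 (minus strand).
Slc16a3: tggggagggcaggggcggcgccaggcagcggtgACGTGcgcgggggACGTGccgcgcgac
Egln1: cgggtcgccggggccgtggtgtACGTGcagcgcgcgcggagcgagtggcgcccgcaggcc
The core, which also lies within the E-box CACGTG, was present on either strand in 38.6% of promoters of genes called higher, 34.4% of those called lower and 29.8% of all tested genes with a promoter.

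Further genes were lowered by the antibody at high beads and not called at low beads. Klf2, a factor that keeps naive T cells quiescent and recirculating, had 28.8, 43.4 and 36.0 nRPKM in anti-Ox40 high-bead libraries, against 63.2, 91.3 and 81.7 nRPKM in control Ig high-bead libraries. The low-bead values were 203, 202 and 193 nRPKM with anti-Ox40, against 215, 253 and 209 nRPKM with control Ig. The groups were apart at both doses, yet the low-bead effect of -0.18 was not called (adjusted p = 0.401), and the difference was -0.93 (SE 0.19, adjusted p = 0.0177). Dusp6, a phosphatase of ERK, averaged 23.2 ± 5.0 nRPKM in anti-Ox40 high-bead and 43.6 ± 7.4 nRPKM in control Ig high-bead libraries, with 13.5 ± 1.0 and 12.8 ± 1.9 nRPKM in anti-Ox40 and control Ig libraries at low beads (SD, n = 3 each). Its difference was -0.97 (SE 0.20, adjusted p = 0.0217). Of 23 naive and quiescence genes Klf2 was the 1 called in the difference, against 3.17% of all genes in either direction. Under the antibody 13 of the 23 fell at high beads (against 11.6% of all genes) and 5 at low beads (against 3.44%).

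Factors of helper T cell lineages were among the genes lower at high beads. Stat4, which transmits IL-12 signals, averaged 16.0 ± 1.2 nRPKM in anti-Ox40 high-bead and 26.5 ± 2.3 nRPKM in control Ig high-bead libraries, and 50.4 ± 2.8 and 54.9 ± 2.0 nRPKM in anti-Ox40 and control Ig libraries at low beads (SD, n = 3 each). Its difference was -0.57 (SE 0.09, adjusted p = 0.00704). Tbx21, the T-bet gene of Th1 cells, differed by -0.39 (adjusted p = 0.0443), and these were 2 of 18 Th1 genes called lower, with none higher, against 1.7% and 1.47% of all genes. Bcl6, the factor of follicular helper cells, differed by -0.46 (adjusted p = 0.0479), Cd96, a receptor of T and NK cells, by -0.48 (adjusted p = 0.0109), Entpd1, which encodes CD39, by -0.70 (adjusted p = 0.0266) and Cd44, an adhesion receptor, by -0.36 (adjusted p = 0.0471). In the activation list, Cd69, an early activation marker, differed by 0.52 (adjusted p = 0.0356) and Nr4a3, a nuclear receptor induced by T cell receptor signals, by 0.68 (adjusted p = 0.0361). With Batf3 they made 3 of 21 members higher, and Cd44 was the 1 lower, against 1.47% and 1.7% of all genes. With 1 library left out the members called higher ranged from 0 to 4 and those called lower from 0 to 1. Subunits of the T cell receptor complex were also called lower, 3 of 18 markers of CD4 T cells against 1.7% of all genes: Cd3g, Cd3d and Cd3e differed by -0.49, -0.35 and -0.35. Cd3e ranged from 159.5 to 177.3 nRPKM in anti-Ox40 high-bead libraries, against 205.3 to 230.0 nRPKM in control Ig high-bead libraries, and from 231.5 to 245.4 and 228.9 to 249.7 nRPKM in anti-Ox40 and control Ig libraries at low beads.

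Rel, Tnfsf11 and Itga7 were called in opposite directions at the 2 doses. Rel had 6.59, 5.55 and 5.51 nRPKM in anti-Ox40 high-bead libraries, against 5.10, 4.94 and 4.59 nRPKM in control Ig high-bead libraries. In low-bead libraries there were 8.97, 9.22 and 9.64 nRPKM with anti-Ox40, against 11.7, 10.6 and 11.9 nRPKM with control Ig. The groups were apart at both doses, with effects of 0.22 and -0.27. Tnfsf11, the RANK ligand gene, had 4.12, 3.96 and 3.79 nRPKM in anti-Ox40 high-bead libraries, against 4.95, 5.05 and 4.64 nRPKM in control Ig high-bead libraries. At low beads it had 12.6, 11.3 and 12.1 nRPKM with anti-Ox40, against 10.4, 9.73 and 9.44 nRPKM with control Ig, so that the effects were -0.25 and 0.26. Itga7, a laminin-binding integrin subunit, had effects of -0.31 at high and 0.53 at low beads. For it the anti-Ox40 values of 16.5, 16.5 and 20.1 nRPKM at high beads reached the lowest control Ig value, 20.1, of 20.1, 25.7 and 21.0 nRPKM. All 16 genes called in opposite directions were also called in the difference. This adds little, since the difference is made of the same 2 effects and opposite signs add their sizes.

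Other large lower genes had no list in common. Nsg2 and Tmem71 differed by -1.04 and -0.84, F2rl2, a protease-activated receptor gene, by -0.91, Phf11b by -0.86, Emp1 by -0.83 and Ctla2a by -0.85. Bcl2a1b, which encodes a copy of the survival protein A1, differed by -0.81. Ctla2a and Bcl2a1b have close paralogs and their values are uncertain for that reason. In the apoptosis lists, Bak1, a pore-forming member, differed by -0.33 (adjusted p = 0.0361). With Bnip3 it made 2 of 10 tested pro-apoptotic genes called lower, with none higher, against 1.7% and 1.47% of all genes. That count was 0 to 2 with 1 library left out and 0 with only the 12 bead libraries, where Bak1 had an adjusted p of 0.0863 by limma. Of 8 tested survival genes 1, Cflar, was called higher and 1, Bcl2a1b, lower.

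Growth and division genes showed smaller differences. The 39 tested DNA replication genes had a median antibody effect of 0.03 at high and 0.25 at low beads, and 19 of them rose at low beads, against 6.15% of all genes, while none was called at high beads, against 26%. The gene Mcm6, a subunit of the replicative helicase, was the 1 of 39 called in the difference (-0.33, adjusted p = 0.0423), against 1.7% called lower over all genes. The count ranged from 0 to 14 with 1 library left out. The 35 mitosis genes had medians of -0.05 and 0.21 at high and low beads, with none called in the difference. With a replicate block 7 of them were called lower, and with 1 library left out 0 to 4. The 29 ribosome biogenesis genes went the other way, with medians of 0.36 and 0.18. At high beads 28 of them rose, against 14.4% of all genes, and at low beads 5 did, against 6.15%. Pprc1, a coactivator of growth genes, was the 1 of 29 called in the difference (0.32, adjusted p = 0.0423), against 1.47% called higher over all genes. The 27 genes of amino acid supply had medians of 0.43 and 0.26 at high and low beads. At high beads 23 of them rose, against 14.4% of all genes, and at low beads 16 did, against 6.15%. The difference was positive for 26 of the 27, with a median of 0.17. In it 1 was called higher and 1 lower, against 1.47% and 1.7% of all genes. Slc38a2, a glutamine transporter gene, differed by 0.39 and Mthfd1l, a mitochondrial folate enzyme gene, by -0.34 (adjusted p = 0.0109 and 0.035). Of the p53 targets, Mdm2 (0.23, adjusted p = 0.0328) and Plk2 were 2 of 20 called higher, against 1.47% of all genes.

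**Figure D5:**
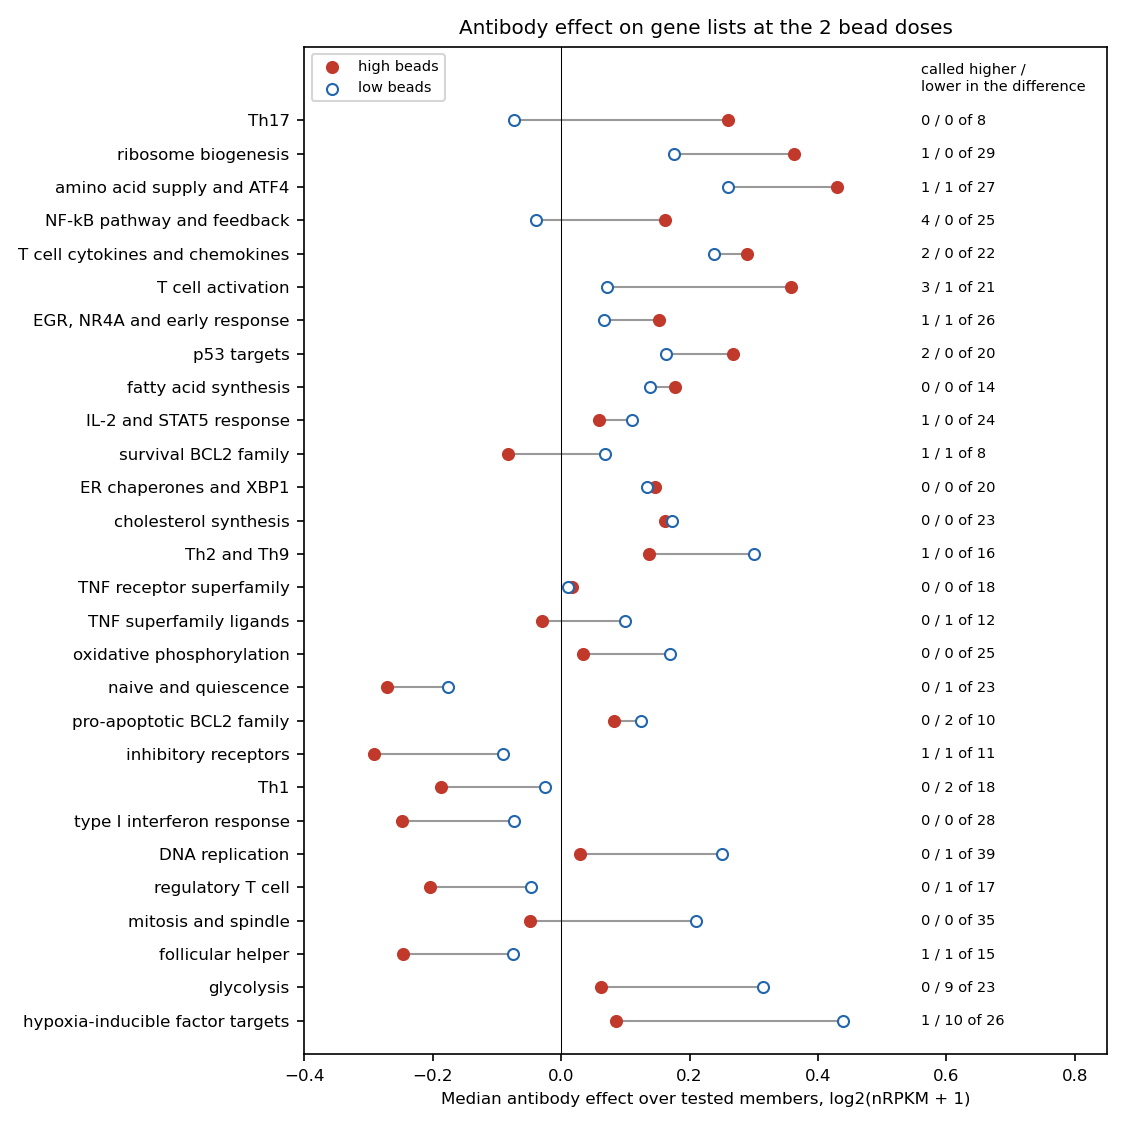
For each of 28 gene lists, filled points give the median antibody effect at high beads and open points at low beads over tested members, on the log2(nRPKM + 1) scale, with the members called higher and lower in the difference printed at the right. The glycolysis list (0 and 9 of 23) and the hypoxia-inducible factor list (1 and 10 of 26) lie at the bottom, with the low-bead median right of the high-bead median.

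Of the 414 genes called, 93 kept their call in each of the 12 fits that left out 1 library, 40 higher and 53 lower. Among the 55 named genes called, 21 did so, among them Bcl2l14, Btla, Plk2, P4ha2, Gpr65, Chuk, Cflar and Slc38a2 in the higher direction, and Mgarp, Slc16a3, Tpi1, Aldoc, Aldoa, Pfkl, Ak4, Egln1, Itga7, Stat4, Cd96 and Tnfsf11 in the lower. Leaving out libraries does not test the pseudocount. At a pseudocount of 0.1, Plk2 and P4ha2 were not called (limma, adjusted p = 0.0533 and 0.835), and the plain ratios of P4ha2 went the other way.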

How the data were processed

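RNA-seq libraries of cultured CD4 T cells were prepared with a TruSeq RNA kit, per the labels' protocols. The submitters' processing notes name GSNAP and the GRCm38 build. Annotation, read counting and library scaling were not given in the sources used here. A table of nRPKM values (RPKM further scaled between libraries), which are not counts, was deposited by the authors. Values were taken as log2(nRPKM + 1), genes with at least 1 nRPKM in at least 3 of 18 libraries were kept, and limma 3.58.1 (R 4.3.3) fitted a mean per group in all 18 libraries with 12 residual degrees of freedom, empirical Bayes moderation with a trend, 2-sided tests and Benjamini-Hochberg adjustment over 13075 genes. A gene was called at adjusted p under 0.05. The fit was tested on simulated data. Named genes were Tnfrsf4, Tnfsf4, Il2ra and Cd69, the 15 largest called differences in each direction and up to 4 members per list with the smallest adjusted p; further members called in a list, Nfkb2, Nfkbia, Hk2, Gapdh and Il9 were added after their values were seen, as were marker genes; some genes that the rule selects are not reported here. Members, gene lists and tests were chosen with earlier results of these data known. RefSeq names matched 11429 tested genes (87.4%). Replicate numbers follow accession order, which the labels do not tie to a mouse or culture, so the reported fit did not use them as a pairing. Yet in deviations from the group mean, 18 of 18 libraries correlated best with their own number in another group. A replicate block, which does use the numbers, gave 692 calls in the difference, against 414. Alternatives covered pseudocount, filter, scaling, covariates, weights, a replicate block and libraries left out.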

Additional observations from a re-analysis of the deposited data

Results flagged for a closer look

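The antibody effect had opposite signs at the 2 bead doses, with each effect and the difference past the threshold, for Itga7 (difference -0.84), Tnfsf11 (-0.51) and Rel (0.50). The adjusted p values of the differences by limma were 0.0125, 0.0112 and 0.0189.

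Without beads, outside the comparison above, 18 genes were called and all were higher with anti-Ox40 (0.138% of those tested). Of the named genes, Tk1, a thymidine kinase of dividing cells, rose by 0.34 on the log2 scale and had 3.01, 3.09 and 2.89 nRPKM with anti-Ox40, against 2.42, 2.22 and 1.86 nRPKM with control Ig. Kif15, a mitotic kinesin, rose by 0.44 and had 1.99, 2.35 and 2.48 nRPKM with anti-Ox40, against 1.40, 1.44 and 1.39 nRPKM with control Ig. In the difference between high and low beads, Tk1 (-0.31, adjusted p = 0.0528) and Kif15 (-0.27, adjusted p = 0.126) were not called.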

How the results depend on the processing

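The count of 414 genes for the difference stayed within 1.5 times under pseudocounts of 0.1, 0.5 and 0.01, nRPKM of at least 1 in at least 6 libraries, no mean-variance trend, median centring, quantile normalization and a B cell score as covariate (359 to 440). It was 263 with no filter, 152 with only the 12 bead libraries, 1559 with library weights, 950 with a nuclear RNA score as covariate, 692 with a replicate block, and 102 to 1243 with 1 library left out. The low-bead count of 1254 was 557, 481, 4109 and 230 under the first 4 of these and 131 to 3522 with 1 library left out. The high-bead count of 3397 was 3000, 2946, 4187 and 2981 under the same 4 and ranged from 2065 to 3880 with 1 library left out. Without the B cell-rich library of every group, a setting chosen after seeing the data, the counts were 3 for the difference, 1387 at high and 24 at low beads. This setting also leaves fewer libraries in each group. The causes were not tested. The labels number no replicates. With numbers in accession order, deviations of libraries with the same number correlated at -0.158 to 0.354, and 18 of 18 libraries correlated best with their own number in another group. P4ha2 reversed to -0.37 at a pseudocount of 0.01, also chosen after seeing the data. Of the values for single genes under the alternatives, 2785 kept direction and side of the threshold, 390 lost the call and 122 gained one. These values pool named genes that were called with named genes that were not. The 390 come only from the 55 called, and the 2785 include uncalled genes that stayed uncalled. Low-bead values under 1 nRPKM limit the ratios of Bcl2l14 and P4ha2.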

Other observations

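Further lists had no member called in the difference, beside 3.17% of all genes. Of 23 cholesterol synthesis genes, 9 rose at high and 8 at low beads (14.4% and 6.15% of all genes), with medians of 0.16 and 0.17, and none was called in the difference. Of 28 genes of the type I interferon response, 14 fell at high beads and 1 at low beads (11.6% and 3.44% of all genes), with medians of -0.25 and -0.07, and none was called in the difference (0 to 4 called lower with 1 library left out). All 8 tested Th17 genes had a positive difference, with a median of 0.33 against 0.00 over all genes, and none passed the test. Among 8 tested platelet markers, 1, Pf4, was called lower in the difference (-0.92, adjusted p = 0.0248), against 1.7% of all genes. It ranged from 3.09 to 3.83 nRPKM in anti-Ox40 high-bead libraries, against 5.96 to 7.89 nRPKM in control Ig high-bead libraries. At low beads it ranged from 22.0 to 28.2 and 22.2 to 25.2 nRPKM in anti-Ox40 and control Ig libraries.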
